A study of Mus musculus with 8 samples.

Results

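RNA-seq of 4 libraries was used to compare the NF1-MET;sgP53 line with the NF1-MET line while both were exposed to the MET kinase inhibitor capmatinib (100 nM, 24 h). Each line had 2 replicate cultures, out of 8 libraries in the series, and the other 4 came from the same lines given DMSO vehicle for 24 h. NF1-MET is a cell line from a mouse malignant peripheral nerve sheath tumor (MPNST) with Met amplification and intact Trp53, grown in a mouse with 1 floxed and 1 null Nf1 allele, a lox-stop-lox MET transgene and Plp-creERT, so that recombination depends on a promoter of the Schwann cell lineage. NF1-MET;sgP53 was derived from it with a lentiviral Cas9 construct carrying a guide against Trp53, so Nf1 loss and the MET transgene are shared by every group. Each genotype was 1 line, and effects of Trp53 editing cannot be told apart from other differences between these lines. The labels give the genotype of NF1-MET as WT. The columns of its libraries carry the letters EV in their names, and the study's methods describe a control line made with the empty vector, but whether these libraries came from that control is not stated. A gene was compared when 2 or more of the 8 libraries held 10 or more of its counts, which left 14497 of 50600 genes, and 14481 of these had counts in at least 2 capmatinib libraries and were tested.

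Between 30116810 and 42781371 counts were assigned to genes per capmatinib library. The nuclear transcript Gm42418, which overlaps ribosomal RNA repeats, took 10.0% to 13.1% of the counts in 3 of these libraries and 1.11% in the second NF1-MET;sgP53 replicate. That library is therefore left out in turn where a result rests on it. Of the Schwann cell markers, Sox10 had 1 to 3 counts, Cdh19 0 to 5 and S100b 3 to 11 in the capmatinib libraries, so these defining markers of the lineage were close to absent in both lines. The lymphocyte marker Cd3e was at 0, the leukocyte marker Ptprc had 2 to 7 counts and the macrophage marker Cd68 21 to 41. In CPM (counts scaled to the TMM-adjusted total of the library), the 3 endothelial markers summed to at most 0.433 CPM and the 3 epithelial markers to at most 0.142 CPM. Of the 3 neuronal markers, Rbfox3 was at 0 and Stmn2 carried nearly all of the sum, which was 20.1 to 21.9 CPM in NF1-MET and 13.6 to 14.8 CPM in NF1-MET;sgP53.

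p53 is a transcription factor that is held at a low level by the ubiquitin ligase MDM2 and, once stabilized, switches on genes for cell cycle arrest, apoptosis and metabolism. MET is the receptor of hepatocyte growth factor and signals through RAS, RAF, MEK and ERK as well as PI3K and AKT. Capmatinib blocks the kinase of MET, and the comparison asks how RNA levels of the Trp53-edited line differ from those of the parental line while that signal is inhibited.

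With capmatinib, 1778 of 14481 genes (12.3%) differed between the lines at an adjusted p under 0.05 in edgeR's quasi-likelihood test. Of these, 860 were higher and 918 lower in NF1-MET;sgP53, which is 5.94% and 6.34% of the genes tested. With vehicle these shares were 10.9% and 12.3%, and for the interaction of line and treatment 3.85% lay above and 5.86% below 0. The counts of called list members given for each comparison stand against these shares. Most differences were small, since the median absolute log2 fold change of called genes was 0.22 and 81.7% of them changed less than 1.5-fold. At least a 2-fold rise was seen for 113 called genes (0.780% of those tested) and at least a 2-fold fall for 57 (0.394%). Only 9 and 10 of them, respectively, reached 10 CPM in the higher group. The 2 replicates of one line did not overlap with those of the other for 1777 of the called genes, against 52.3% of all genes tested. With library totals in place of TMM factors, 537 genes were higher and 129 lower, and the median change over all genes became 0.11 on the log2 scale in place of 0.00. The cause of the lower counts was not tested, and all changes given here are relative to the TMM scaling.

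**Figure D1:**
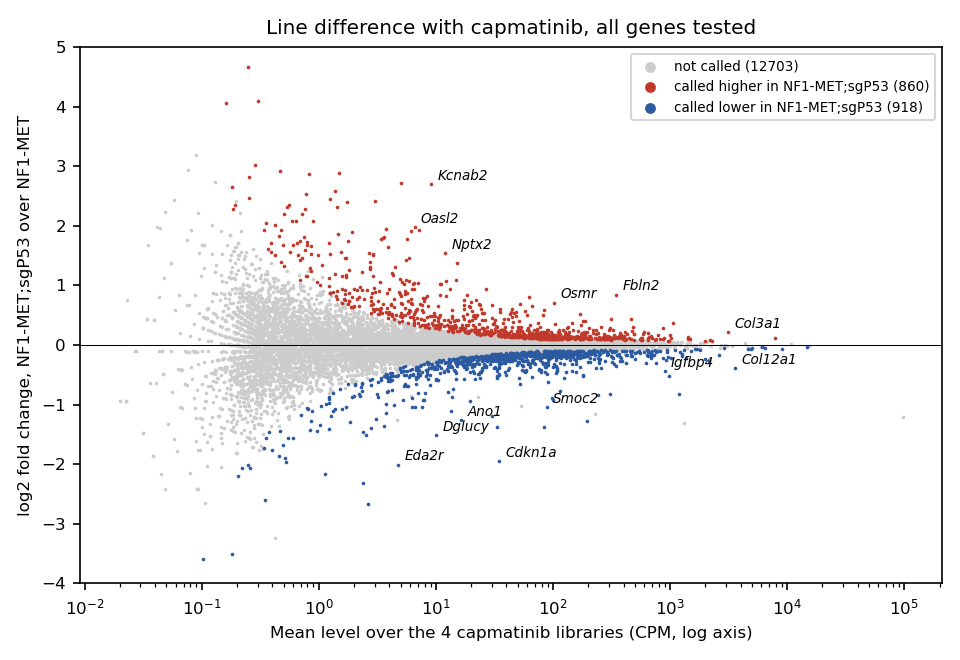
Log2 fold change of NF1-MET;sgP53 over NF1-MET with capmatinib (vertical axis) against the mean level over the 4 capmatinib libraries (CPM, log axis) for the 14481 genes tested, 1 point per gene. Called genes are colored (860 higher in red, 918 lower in blue), most lie close to 0, and the large changes are found mainly among genes of low level.

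The transcript of the targeted gene was reduced. Trp53 (chr11:69580359-69591873, plus strand, mm10) was at 126 and 128 CPM in NF1-MET and at 68.0 and 68.8 CPM in NF1-MET;sgP53. Both edited libraries lay far below both parental ones, with a log2 fold change of -0.89 (SE 0.03, adjusted p = 4.8e-13). With vehicle the value was -0.94, and the interaction of line and treatment, the difference between the log2 fold changes of the lines with capmatinib and with vehicle, was 0.03 (adjusted p = 0.76). Whether the remaining transcript encodes functional p53 cannot be read from these RNA counts. The study reported lower p53 protein in NF1-MET;sgP53 cells. Of the 20 genes nearest to Trp53 with at least 10 CPM, 10 on each side, none was called and their log2 fold changes lay between -0.13 and 0.12.

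Among canonical p53 targets, falls in NF1-MET;sgP53 outnumbered rises, and most targets were not called. Of 68 tested targets, 19 were called lower (6.34% of all genes were), 6 higher and 43 were not called, and the median log2 fold change was -0.08 against 0.00 over all genes. With library totals 9 of them were lower. The cyclin-dependent kinase inhibitor Cdkn1a (p21), which halts the cell cycle, was at 54.4 and 55.0 CPM in NF1-MET and at 13.4 and 14.8 CPM in NF1-MET;sgP53. It was thus 3.88-fold lower without overlap (log2 fold change -1.95, SE 0.05, adjusted p = 1.4e-13). With vehicle the difference was -1.69, and the interaction was -0.28 (adjusted p = 0.015), a larger line difference under the drug. The interaction of Cdkn1a was not called without the first capmatinib replicate of NF1-MET;sgP53, the second vehicle replicate of NF1-MET or the first vehicle replicate of NF1-MET;sgP53, with library totals or in DESeq2's Wald test.

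A p53 binding site consists of a pair of decamer half-sites. The 250 bases before a RefSeq start of Cdkn1a (GRCm38.p6, chr17:29090729-29090978, plus strand) are shown, with the matched half-sites in capitals. This was the gene of the p53 list with the largest fold loss of RNA at more than 10 CPM.
Cdkn1a: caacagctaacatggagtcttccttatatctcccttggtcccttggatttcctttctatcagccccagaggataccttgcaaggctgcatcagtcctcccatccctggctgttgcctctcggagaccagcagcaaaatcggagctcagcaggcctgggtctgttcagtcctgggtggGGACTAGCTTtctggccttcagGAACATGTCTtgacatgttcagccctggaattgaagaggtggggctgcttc
The pair lies at -73 to -42 from this RefSeq start with 12 bases between the half-sites. Which start of Cdkn1a these cells use was not tested, and a match is a description of the letters and not evidence of binding. The search allowed up to 13 bases between 2 perfect half-sites, in a window from 250 bases before to 50 after the start. Such a pair was found for 6 of the 10176 tested genes with a promoter (0.059%). It was found for 1 of 684 genes called lower, which was Cdkn1a, and for 0 of 641 genes called higher. Of the 15 p53 targets called lower with a promoter, 1 had it (6.67%). A gene counted when any of its promoters held the pair.

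Among the regulators of p53 itself, the cyclin Ccng1, a feedback gene that acts on MDM2, was at 145 and 143 CPM in NF1-MET and at 81.6 and 86.2 CPM in NF1-MET;sgP53 (log2 fold change -0.78, SE 0.03, adjusted p = 2.6e-11). Mdm2 was at 79.5 and 82.1 CPM against 73.0 and 71.8 CPM. This fall by 0.16 on the log2 scale was small, although the groups did not overlap (adjusted p = 0.0025, but 0.82 with library totals and 0.052 in DESeq2's Wald test), and with vehicle it was -0.48 (interaction 0.30, adjusted p = 4.4e-05). Trp53inp1, a stress protein that promotes p53 phosphorylation, was at 28.2 and 28.5 CPM in NF1-MET and at 21.6 and 20.7 CPM in NF1-MET;sgP53. Its line difference was -0.42 with capmatinib and -1.87 with vehicle, the widest gap between the treatments of any p53 target named here (interaction 1.43, adjusted p = 5.3e-09).

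Arrest and death genes did not move as a block. The RNA-binding protein Zmat3 was at 78.1 and 78.4 CPM in NF1-MET and at 55.0 and 53.3 CPM in NF1-MET;sgP53 (log2 fold change -0.53, adjusted p = 9.8e-09). The antiproliferative factor Btg2 was at 90.5 CPM in both NF1-MET libraries and at 75.8 and 69.7 CPM in NF1-MET;sgP53 (log2 fold change -0.31, adjusted p = 9.0e-06), whereas with vehicle its level was below 8 CPM throughout and its line difference was 0.04. The death receptor Eda2r was at 7.63 and 7.68 CPM against 1.96 and 1.85 CPM, the largest fold of the list (4.02-fold lower, adjusted p = 1.2e-08). The AKT repressor Phlda3 was at 65.8 and 62.9 CPM against 40.1 and 41.5 CPM (log2 fold change -0.65, adjusted p = 4.6e-09). In contrast, the apoptosome scaffold Apaf1 was at 53.9 and 52.9 CPM in NF1-MET and at 59.9 and 59.7 CPM in NF1-MET;sgP53, a rise of 0.16 on the log2 scale (adjusted p = 0.0056, but 0.0816 with library totals, where the log2 fold change was 0.28, and 0.0907 in DESeq2's Wald test). With library totals the calls of Btg2 (adjusted p = 0.256) and Trp53inp1 (adjusted p = 0.083) were lost as well. Bax, Bbc3 (PUMA), Pmaip1 (NOXA) and Fas, which carry out or trigger apoptosis, were not called, and none of the 6 tested targets for DNA repair and nucleotide supply was.

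Of the 30 targets in metabolism, redox control and other processes, 8 were lower and 2 higher, against 6.34% and 5.94% of all genes. Ephx1, the microsomal epoxide hydrolase, was at 132 and 128 CPM in NF1-MET and at 68.3 and 68.2 CPM in NF1-MET;sgP53 (log2 fold change -0.93, SE 0.03, adjusted p = 4.7e-13). Dglucy, which encodes D-glutamate cyclase, was at 14.1 and 15.7 CPM against 5.45 and 5.10 CPM (log2 fold change -1.51, SE 0.09, adjusted p = 4.0e-09). Both separated the lines in each library, and both were also lower with vehicle, where the log2 fold changes were -1.36 and -1.88. The peptide transporter Tap1, a p53 target that also responds to interferon, went the other way, at 4.55 and 4.19 CPM in NF1-MET and at 6.24 and 8.21 CPM in NF1-MET;sgP53 (log2 fold change 0.73, adjusted p = 0.0012).

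**Figure D2:**
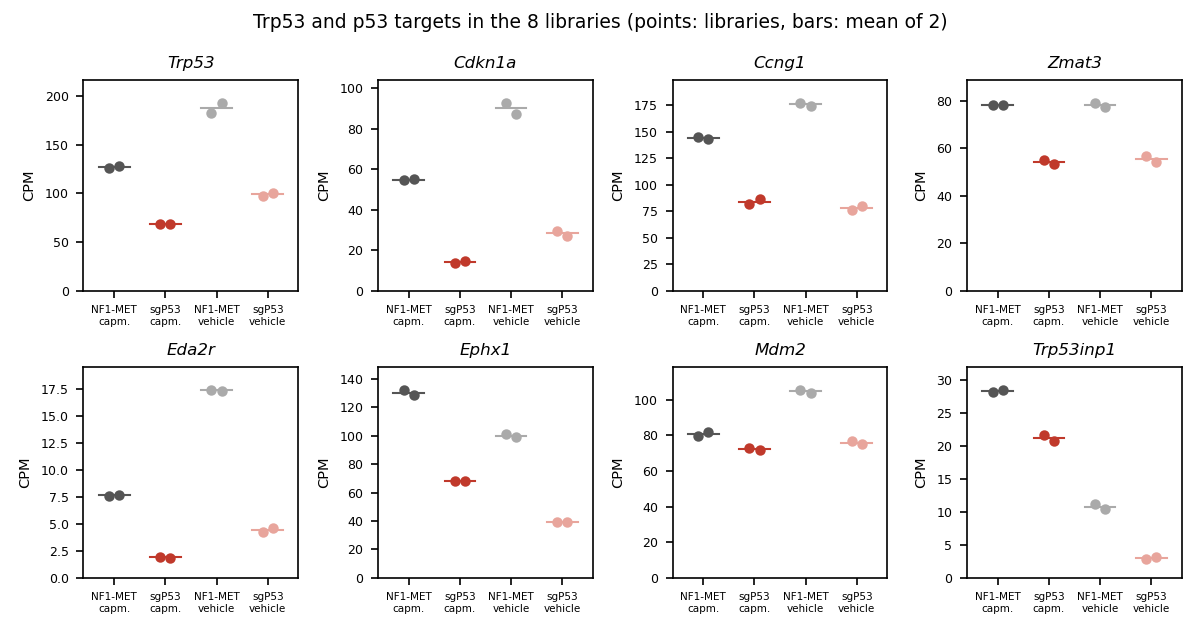
Levels (CPM, linear axes from 0) of Trp53 and 7 p53 targets in all 8 libraries, with 1 point per library and a bar at the mean of 2. In each panel both NF1-MET;sgP53 libraries with capmatinib lie below both NF1-MET libraries with capmatinib, by the largest factor for Eda2r and Cdkn1a and the smallest for Mdm2.

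Interferon-stimulated genes were higher in NF1-MET;sgP53 almost throughout. Interferons signal through JAK kinases to STAT proteins and IRF9, and this complex switches on antiviral genes through the interferon-stimulated response element (ISRE) in their promoters. Of 38 tested genes of this kind, 35 were called higher in NF1-MET;sgP53, against 5.94% of all genes, and 0 lower. Among antiviral effectors 20 of 22 were higher with a median log2 fold change of 1.29, and among sensors and regulators 15 of 16 with a median of 0.71. The count was 31 to 34 with any 1 of the 4 libraries left out, 34 with library totals, 30 in DESeq2's Wald test and 27 with a stricter filter on low counts. The levels were low, and 18 of the 113 genes that rose at least 2-fold were on this list. The blood cell marker Cd68 had 21 and 41 counts in the parental libraries against 36 and 33 in the edited ones, and Ptprc had 2 and 7 against 2 and 3. Neither separated the lines, but counts this low could not show whether blood cells differed.

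The promoters of 4 of these genes are printed because they hold the letters searched for as an ISRE upstream of the start, namely GAAA, any 2 bases and GAAA, or TTTC, any 2 bases and TTTC on the other strand. The 250 bases before each start (RefSeq, GRCm38.p6) are written 5′ to 3′ in the direction of the gene, with the matches in capitals, which run together where they overlap. They lie at chr4:156200819-156201068 (Isg15, minus strand), chr19:34640639-34640888 (Ifit1, plus strand), chr8:71537473-71537722 (Bst2, minus strand) and chr3:142620413-142620662 (Gbp2, plus strand).
Isg15: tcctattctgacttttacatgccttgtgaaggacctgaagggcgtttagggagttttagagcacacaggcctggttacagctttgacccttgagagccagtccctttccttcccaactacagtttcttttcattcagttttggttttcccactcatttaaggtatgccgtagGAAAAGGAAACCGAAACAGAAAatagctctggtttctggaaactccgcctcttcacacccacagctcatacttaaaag
Ifit1: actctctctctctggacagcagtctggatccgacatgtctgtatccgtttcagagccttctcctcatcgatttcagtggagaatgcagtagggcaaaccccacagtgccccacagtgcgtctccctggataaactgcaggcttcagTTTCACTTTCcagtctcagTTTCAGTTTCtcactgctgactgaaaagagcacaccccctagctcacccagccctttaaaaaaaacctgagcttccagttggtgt
Bst2: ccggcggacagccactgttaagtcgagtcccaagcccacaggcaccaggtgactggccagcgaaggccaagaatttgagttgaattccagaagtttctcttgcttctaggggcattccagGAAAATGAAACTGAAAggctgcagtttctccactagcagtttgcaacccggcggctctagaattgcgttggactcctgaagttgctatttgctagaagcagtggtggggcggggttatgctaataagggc
Gbp2: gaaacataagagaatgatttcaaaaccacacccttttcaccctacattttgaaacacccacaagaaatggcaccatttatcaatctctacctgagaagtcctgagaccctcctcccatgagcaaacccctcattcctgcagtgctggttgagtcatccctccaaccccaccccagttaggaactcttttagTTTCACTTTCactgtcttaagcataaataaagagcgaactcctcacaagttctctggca
The element was present for 13 of the 25 called interferon-stimulated genes with a promoter (52.0%). It was present for 53 of 641 genes called higher (8.27%), 22 of 684 called lower (3.22%) and 374 of 10176 tested genes (3.68%). A gene counted when any of its promoters held the element. Outside the list it was found for 40 of 616 genes called higher (6.49%). The search was chosen after the calls had been seen, and a match is a description of the letters and not evidence of binding.

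Ifit1, which binds foreign RNA, was at 1.08 and 1.54 CPM in NF1-MET and at 6.92 and 10.7 CPM in NF1-MET;sgP53 (log2 fold change 2.71, SE 0.22, adjusted p = 9.1e-08). Its neighbour Ifit3, with which it may share reads, was at 0.542 and 0.573 CPM against 2.13 and 3.78 CPM. Isg15, a ubiquitin-like modifier, was at 2.67 and 2.47 CPM against 8.60 and 9.04 CPM (log2 fold change 1.78, SE 0.12, adjusted p = 1.6e-08). All 3 genes were at least 3.43-fold higher, and the lower of the edited libraries exceeded the higher of the parental ones each time. Oasl2, a 2′-5′-oligoadenylate synthetase-like protein, was at 2.93 and 2.45 CPM against 10.3 and 10.6 CPM and had the second largest rise among genes that reached 10 CPM (log2 fold change 1.98, SE 0.12, adjusted p = 3.3e-09). Bst2 (tetherin), which holds budding virus at the membrane, was at 7.08 and 8.36 CPM against 18.1 and 14.9 CPM (log2 fold change 1.08, adjusted p = 6.9e-07), and the guanylate-binding protein Gbp2 was at 36.4 and 34.3 CPM against 53.7 and 53.3 CPM (log2 fold change 0.60, adjusted p = 3.1e-08). Gbp2 was the most abundant of those named, and its fold was the smallest.

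The signaling parts of the response were higher as well. Irf9, the DNA-binding subunit of the STAT complex, was at 8.82 and 8.77 CPM in NF1-MET and at 16.6 and 14.7 CPM in NF1-MET;sgP53 (log2 fold change 0.83, adjusted p = 1.6e-06). Irf7, which amplifies interferon production, was at 1.30 and 1.67 CPM against 4.28 and 3.61 CPM (adjusted p = 5.3e-05), and the RNA sensor Ifih1 (MDA5) was at 9.47 and 8.64 CPM against 16.3 and 18.1 CPM (log2 fold change 0.93, adjusted p = 2.9e-07). Usp18, the negative regulator that removes ISG15 from proteins, was at 0.398 and 0.312 CPM against 2.27 and 2.92 CPM (log2 fold change 2.89, SE 0.29, adjusted p = 1.8e-06). Activators and this inhibitor therefore stood on the same side. The proapoptotic Xaf1 (7.34 and 6.85 against 15.6 and 13.1 CPM), the secreted glycoprotein Lgals3bp (18.4 and 18.3 against 37.5 and 32.7 CPM) and Apol9a (7.95 and 7.52 against 15.3 and 12.3 CPM) were among the 15 largest rises at this level. The antiviral GTPase Mx2 was at 0.145 and 0.0781 CPM against 0.426 and 1.21 CPM, and its call was lost without the second NF1-MET;sgP53 replicate (adjusted p = 0.066).

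MHC class I presentation, which shows peptides to T cells and is raised by interferon, was shifted by less. Of 20 tested genes 12 were higher and 0 lower, against 5.94% and 6.34% of all genes, with a median log2 fold change of 0.22. The class I heavy chains H2-D1 (121 and 118 against 150 and 146 CPM, log2 fold change 0.31) and H2-K1 (55.8 and 55.7 against 71.0 and 64.5 CPM, log2 fold change 0.28) rose modestly. H2-Q4 was at 3.83 and 3.91 CPM against 6.81 and 7.14 CPM (log2 fold change 0.85), and reads of these near-identical chains may be split uncertainly among them. The peptide transporter subunit Tap2 was at 18.7 and 18.8 CPM against 26.5 and 26.3 CPM (log2 fold change 0.50, adjusted p = 7.7e-06). The immunoproteasome subunit Psmb8 was at 4.88 and 4.14 CPM against 9.05 and 8.13 CPM (log2 fold change 0.94), and the class I transactivator Nlrc5 was at 0.181 and 0.312 CPM against 1.05 and 1.32 CPM (log2 fold change 2.20, SE 0.39, adjusted p = 0.00073). In every one of these genes both edited libraries were higher than both parental ones.

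With vehicle, where 10.9% of 14484 tested genes were called higher and 12.3% lower, 24 of the 38 interferon-stimulated genes were higher and 0 lower, with a median log2 fold change of 0.94 against 0.93 with capmatinib. The interaction was called for 7 of them, 2 above and 5 below 0, against 9.71% of all genes (3.85% above and 5.86% below 0). Without the second vehicle replicate of NF1-MET 0 lay above and 2 below 0, with library totals 2 above and 0 below, and in DESeq2's Wald test 0 above and 4 below.

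**Figure D3:**
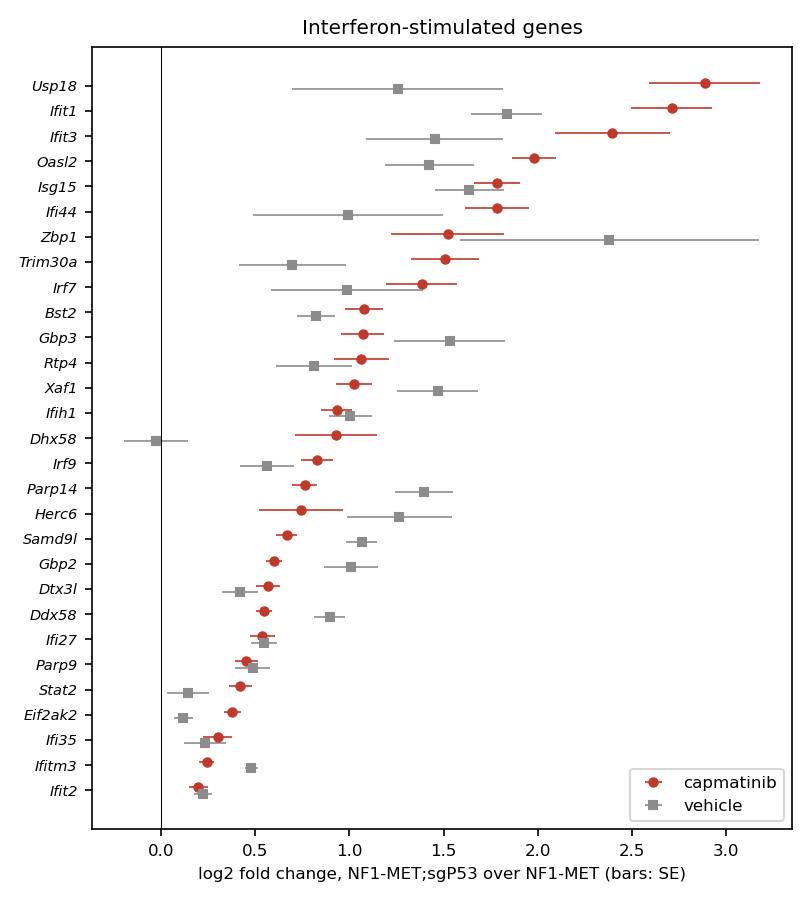
Log2 fold change of NF1-MET;sgP53 over NF1-MET (horizontal axis, bars show SE) with capmatinib (circles) and with vehicle (squares) for 29 called interferon-stimulated genes with at least 1 CPM in the capmatinib-treated edited line. The capmatinib values, whose calls chose the genes, lie between 0.20 and 2.89, and 28 of the 29 genes lie above 0 with vehicle.

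Of 14 tested cytokine genes 7 were higher and 1 lower, against 5.94% and 6.34% of all genes. The interferon-responsive chemokine Cxcl10 was at 0.614 and 0.651 CPM in NF1-MET and at 1.67 and 2.95 CPM in NF1-MET;sgP53 (log2 fold change 1.86, adjusted p = 0.00039). The inflammatory cytokine Il6 was at 3.98 and 3.12 CPM against 7.09 and 7.85 CPM (log2 fold change 1.10, SE 0.13, adjusted p = 1.2e-05). Osmr, the receptor subunit for oncostatin M, was at 78.9 and 76.9 CPM against 128 and 127 CPM (log2 fold change 0.71, SE 0.03, adjusted p = 2.2e-11). All 3 separated the lines. With vehicle Osmr was at 4.05 and 4.04 CPM against 24.8 and 25.4 CPM, a line difference of 2.61, so that the interaction was -1.92 (adjusted p = 1.3e-15).

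Many early-response genes downstream of ERK were lower in the edited line, with and without the drug. Of 14 tested transcription factors of this pathway 11 were called lower and 1 higher, against 6.34% and 5.94% of all genes. Their median log2 fold change was -0.22, and the count of lower genes was 6 in DESeq2's Wald test and 2 with library totals. With vehicle 8 of the 14 were lower and 2 higher, against 12.3% and 10.9%, with a median of -0.12. The interaction was above 0 for 1 and below 0 for 5 of them, against 3.85% and 5.86%. Ier2 was at 103 and 104 CPM in NF1-MET and at 73.1 and 75.2 CPM in NF1-MET;sgP53 (log2 fold change -0.48, SE 0.03, adjusted p = 4.5e-09). With vehicle its difference was -0.08 and was not called (adjusted p = 0.17). The interaction was -0.42 (adjusted p = 1.5e-06), but was not called with library totals. Egr1, a zinc finger factor induced within minutes of growth factor signals, was at 675 and 695 CPM against 550 and 565 CPM (log2 fold change -0.30, adjusted p = 1.9e-07), and the ETS factor Etv4 was at 27.4 and 26.9 CPM against 18.9 and 20.04 CPM (log2 fold change -0.48, adjusted p = 1.4e-05). For all 3 factors the edited libraries were the lower ones. The related factor Etv1 was the exception, at 18.3 CPM in both NF1-MET libraries and at 22.2 and 21.3 CPM in NF1-MET;sgP53 (log2 fold change 0.25), and its call was lost without the first NF1-MET;sgP53 replicate (adjusted p = 0.055) and in DESeq2's Wald test (adjusted p = 0.137). That of Egr1 was lost with library totals (adjusted p = 0.343). Myc and Fosl1 were not called.

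Of 10 feedback inhibitors of ERK 2 were higher and 2 lower, against 5.94% and 6.34% of all genes. With vehicle 2 were higher and 6 lower, against 10.9% and 12.3%. The interaction was above 0 for 6 and below 0 for 0 of them, against 3.85% and 5.86%. The ERK phosphatase Dusp5 was at 36.4 and 38.5 CPM in NF1-MET and at 28.3 and 28.6 CPM in NF1-MET;sgP53 (log2 fold change -0.40, adjusted p = 1.7e-05). Errfi1, an inhibitor of EGF receptor kinases, was at 601 and 598 CPM against 696 and 689 CPM (log2 fold change 0.21, adjusted p = 5.2e-06). Of 8 other ERK targets 4 were lower and 0 higher, against 6.34% and 5.94% of all genes. The growth factor Hbegf was at 36.6 and 34.8 CPM against 26.6 and 28.6 CPM (log2 fold change -0.37, adjusted p = 9.9e-05), and cyclin D1 (Ccnd1) was at 540 and 535 CPM against 454 and 458 CPM (log2 fold change -0.24, adjusted p = 2.7e-06). Both were lower by a similar amount with vehicle, where the values were -0.44 and -0.23. The calls of Dusp5, Hbegf and Ccnd1 were lost with library totals (adjusted p = 0.11, 0.183 and 0.51).

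**Figure D4:**
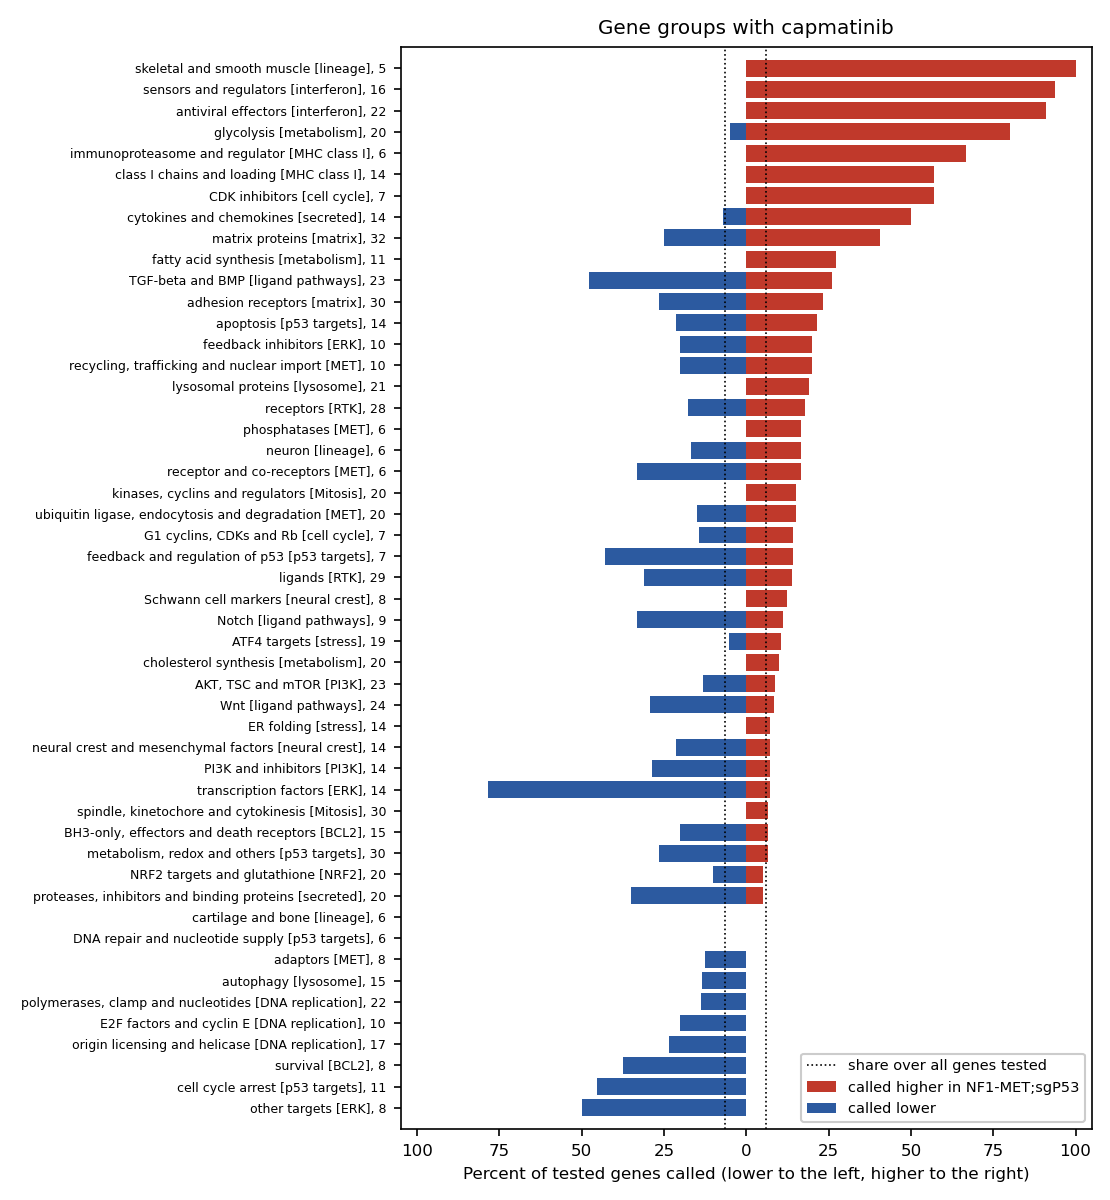
Percent of tested genes called higher (red, to the right) and lower (blue, to the left) in NF1-MET;sgP53 with capmatinib for 50 gene groups with at least 5 tested genes, with the number tested after each name. Dotted lines mark the share over all genes (5.94% higher, 6.34% lower). Interferon, muscle and glycolysis groups extend far to the right and the ERK transcription factors far to the left.

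The RNA of Met hardly differed, at 230 and 232 CPM in NF1-MET and at 249 and 246 CPM in NF1-MET;sgP53 (log2 fold change 0.10, SE 0.03, adjusted p = 0.022). The call was lost without either NF1-MET replicate, with adjusted p = 0.11 without the first and 0.086 without the second, and also in DESeq2's Wald test (adjusted p = 0.0552) and with library totals (log2 fold change 0.22, adjusted p = 0.229). Among 20 tested genes for ubiquitination, endocytosis and degradation of the receptor, 3 were higher and 3 lower, against 5.94% and 6.34% of all genes. The ubiquitin ligase Cblb, which marks MET for degradation, was at 43.8 and 44.1 CPM against 37.2 and 35.7 CPM (log2 fold change -0.27, adjusted p = 0.00036). Sh3kbp1 (CIN85), an adaptor of that ligase in endocytosis, was at 195 and 191 CPM against 168 CPM in both edited libraries (log2 fold change -0.20, adjusted p = 0.00014). Both falls were larger with vehicle, at -0.48 and -0.36, and the interaction was called for Sh3kbp1 (0.135, adjusted p = 0.031) and not for Cblb (0.19, adjusted p = 0.064). That of Sh3kbp1 was lost with library totals and without the first vehicle or second capmatinib replicate of NF1-MET or the first vehicle or first capmatinib replicate of NF1-MET;sgP53. With library totals neither fall with capmatinib was called (adjusted p = 0.42 for Cblb and 0.638 for Sh3kbp1).

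Prkce, a kinase that directs trafficking of MET, was at 18.2 and 17.3 CPM in NF1-MET and at 21.8 and 19.3 CPM in NF1-MET;sgP53 (log2 fold change 0.22, SE 0.07, adjusted p = 0.047). It lost its call without the second NF1-MET replicate (adjusted p = 0.22) and without the first NF1-MET;sgP53 replicate (adjusted p = 0.39), in DESeq2's Wald test (adjusted p = 0.307) and with library totals (log2 fold change 0.33, adjusted p = 0.0622). The co-receptor Nrp1 was at 197 and 195 CPM against 174 and 178 CPM. It was lower with capmatinib (log2 fold change -0.16, adjusted p = 0.0017) and higher with vehicle (0.49), and the interaction was -0.66 (adjusted p = 1.2e-10). Its capmatinib call was lost with library totals (adjusted p = 0.842).

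Other receptor tyrosine kinases were called in both directions, 5 higher and 5 lower of 28 tested, against 5.94% and 6.34% of all genes. Fgfr2, a fibroblast growth factor receptor, was at 42.8 and 47.6 CPM in NF1-MET and at 79.2 and 79.8 CPM in NF1-MET;sgP53, the largest rise among them (log2 fold change 0.81, SE 0.04, adjusted p = 6.1e-10). Ephb2 was at 37.3 and 37.8 CPM against 51.6 and 52.8 CPM (log2 fold change 0.47, adjusted p = 2.7e-07). The pseudokinase Ptk7, a Wnt co-receptor, was at 48.5 and 45.4 CPM against 33.1 and 32.5 CPM (log2 fold change -0.51), and the VEGF receptor Flt1 was at 39.3 and 39.2 CPM against 31.2 and 28.6 CPM (log2 fold change -0.39, not called with library totals, adjusted p = 0.111). Egfr, at 33.0 and 36.6 CPM against 33.5 and 34.4 CPM, overlapped between the lines and was not called (log2 fold change -0.04, SE 0.05, adjusted p = 0.71).

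Of 29 tested receptor ligands, 9 were lower and 4 higher, against 6.34% and 5.94% of all genes. Pdgfb was at 39.6 and 39.3 CPM against 25.5 and 28.2 CPM (log2 fold change -0.55, adjusted p = 8.6e-07), and Fgf2 at 39.3 and 41.4 CPM against 29.6 and 28.2 CPM (log2 fold change -0.49, adjusted p = 1.7e-06). The insulin-like growth factor Igf1 was at 44.2 and 44.9 CPM against 32.0 and 33.3 CPM (log2 fold change -0.45), and the placental growth factor Pgf at 10.2 and 10.4 CPM against 6.98 and 6.89 CPM (log2 fold change -0.57). For each of these 4 ligands both edited libraries were the lower ones.

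Of 49 DNA replication genes 9 were lower and 0 higher, against 6.34% and 5.94% of all genes, with a median log2 fold change of -0.10, and 41 of the 49 lay below 0. The helicase subunit Mcm6 was at 169 CPM in both NF1-MET libraries and at 147 and 153 CPM in NF1-MET;sgP53 (log2 fold change -0.17, adjusted p = 0.0014). The ribonucleotide reductase subunit Rrm2 was at 86.5 and 85.3 CPM against 76.3 and 77.3 CPM (log2 fold change -0.16, adjusted p = 0.0015). The count of 9 became 4 without the second NF1-MET replicate, 3 without the first NF1-MET;sgP53 replicate, 2 in DESeq2's Wald test and 0 with library totals. With vehicle 10 of these genes were higher and 3 lower, against 10.9% and 12.3%, and the interaction was below 0 for 15 and above 0 for 0 of them, against 5.86% and 3.85%. This count of 15 was 8 without the first vehicle replicate of NF1-MET, 7 without the second capmatinib replicate of NF1-MET;sgP53, 7 in DESeq2's Wald test and 0 with library totals.

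Of 50 mitosis genes 5 were higher and 0 lower, against 5.94% and 6.34% of all genes, with a median log2 fold change of 0.05, and 41 of the 50 lay above 0. Cenpe, a kinetochore motor, was at 122 and 130 CPM against 149 and 143 CPM (log2 fold change 0.21, adjusted p = 0.00049), and the mitotic kinase Plk1 was at 74.4 and 75.4 CPM against 81.3 and 85.3 CPM (log2 fold change 0.15). The call of Plk1 was lost without the second NF1-MET;sgP53 replicate (adjusted p = 0.051), in DESeq2's Wald test (adjusted p = 0.0649) and with library totals (log2 fold change 0.27, adjusted p = 0.0794). The count of 5 became 3 without the second NF1-MET replicate, 8 without the first NF1-MET;sgP53 replicate, and 1 in DESeq2's Wald test or with library totals.

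Cyclin D2 (Ccnd2) was higher, at 161 and 159 CPM in NF1-MET and at 208 and 215 CPM in NF1-MET;sgP53 (log2 fold change 0.40, SE 0.03, adjusted p = 5.4e-08), in contrast to the lower cyclin D1. Cdkn2a encodes the CDK inhibitor p16 and the MDM2 antagonist p19ARF, and the study describes the parental line as having lost this gene spontaneously. Counts were nonetheless assigned to it, and from which part of the gene they came was not tested. It had 267 and 320 counts in NF1-MET and 378 and 426 counts in NF1-MET;sgP53. Its level was 9.65 and 8.33 CPM against 10.7 and 11.7 CPM (log2 fold change 0.34, SE 0.09, adjusted p = 0.022). The call was lost without the second NF1-MET replicate (adjusted p = 0.25) or the second NF1-MET;sgP53 replicate (adjusted p = 0.12) and in DESeq2's Wald test (adjusted p = 0.213). The adjacent Cdkn2b, at 82.0 and 79.8 CPM against 87.3 and 80.8 CPM, overlapped and was not called, and Mtap was at 551 and 547 CPM against 578 and 588 CPM (log2 fold change 0.09, adjusted p = 0.024). The call of Mtap was lost without the first NF1-MET replicate (adjusted p = 0.060), the second (adjusted p = 0.14) or the second NF1-MET;sgP53 replicate (adjusted p = 0.057) and with library totals (log2 fold change 0.20, adjusted p = 0.279).

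Of 8 survival members of the BCL2 family 3 were lower and 0 higher, against 6.34% and 5.94% of all genes. Bcl2l1 (BCL-XL) was at 61.9 and 61.5 CPM in NF1-MET and at 47.5 and 44.8 CPM in NF1-MET;sgP53 (log2 fold change -0.42, SE 0.04, adjusted p = 9.0e-07). Bcl2 was at 53.2 and 49.7 CPM against 41.6 and 44.6 CPM (log2 fold change -0.25, adjusted p = 0.0013), with a vehicle difference of 0.10 and an interaction of -0.37. The proapoptotic Bmf was also lower, at 13.4 and 13.6 CPM against 9.90 and 9.84 CPM (log2 fold change -0.45, adjusted p = 0.00053). Both sides of the balance between survival and death therefore contained genes that fell. The calls of Bcl2 (adjusted p = 0.47) and Bmf (adjusted p = 0.0864) were lost with library totals, and so was the interaction call of Bcl2.

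Most glycolysis genes were higher by a small margin. Of 20 tested genes 16 were called higher and 1 lower, against 5.94% and 6.34% of all genes, with a median log2 fold change of 0.15. With vehicle 5 were higher and 3 lower, against 10.9% and 12.3%, with a median of -0.01. The interaction was above 0 for 8 and below 0 for 1 of them, against 3.85% and 5.86%. The count above 0 was 4 without the first and 5 without the second vehicle replicate of NF1-MET, 5 without the second capmatinib replicate of NF1-MET, 5 without the first vehicle replicate of NF1-MET;sgP53 and 0 with library totals. The phosphofructokinase Pfkl was at 184 and 181 CPM in NF1-MET and at 210 and 212 CPM in NF1-MET;sgP53 (log2 fold change 0.21, SE 0.03, adjusted p = 6.3e-05). The lactate exporter Slc16a3 was at 72.2 and 71.4 CPM against 83.2 and 82.4 CPM (log2 fold change 0.21), and the triosephosphate isomerase Tpi1 at 464 and 466 CPM against 522 and 533 CPM (log2 fold change 0.18). Replicates of these genes lay close together and the groups did not overlap. The neuronal enolase Eno2 was at 18.7 and 17.9 CPM against 15.8 CPM in both edited libraries (log2 fold change -0.21, adjusted p = 0.042), and its call was lost with any 1 of the 4 libraries left out (adjusted p between 0.066 and 0.17). The count of 16 became 12 without the first NF1-MET;sgP53 replicate, 11 in DESeq2's Wald test and 3 with library totals. The antioxidant enzyme Nqo1 was lower, at 79.0 and 76.1 CPM against 61.7 and 62.9 CPM (log2 fold change -0.31, adjusted p = 5.1e-06), while 17 of 20 tested NRF2 targets were not called. With library totals the calls of Tpi1 (log2 fold change 0.30, adjusted p = 0.0544), Eno2 (0.648) and Nqo1 (0.278) were lost, and that of Eno2 also in DESeq2's Wald test (0.345).

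Matrix proteins were called in both directions, 13 of 32 higher and 8 lower, against 5.94% and 6.34% of all genes. Col12a1, a collagen that sits on the surface of fibrils, was at 3916 and 4149 CPM in NF1-MET and at 3235 and 2954 CPM in NF1-MET;sgP53, the largest difference in CPM of any called gene (log2 fold change -0.38, SE 0.03, adjusted p = 5.5e-08). With vehicle its level was between 461 and 518 CPM and the line difference was 0.08. Col3a1, a fibrillar collagen, was at 2903 and 2881 CPM against 3428 and 3304 CPM (log2 fold change 0.22), and the elastic fibre protein Fbln2 was at 247 CPM in both NF1-MET libraries against 441 and 446 CPM (log2 fold change 0.85, SE 0.03, adjusted p = 4.7e-13). Fbln2 thus rose 1.80-fold with almost no spread.

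The YAP target Ccn2 was at 2793 and 2733 CPM against 2470 and 2472 CPM (log2 fold change -0.16, adjusted p = 7.0e-07), whereas with vehicle it was higher in NF1-MET;sgP53 by 0.79 (interaction -0.97, adjusted p = 2.2e-18). The basement membrane proteoglycan Hspg2 was at 2037 and 2254 CPM against 1878 and 1781 CPM (log2 fold change -0.23), the endocytic receptor Lrp1 at 2222 and 2484 CPM against 2006 and 1892 CPM (log2 fold change -0.27), and osteopontin (Spp1) at 1503 and 1460 CPM against 1278 and 1268 CPM (log2 fold change -0.22). Among adhesion receptors, 7 of 30 were higher and 8 lower, against 5.94% and 6.34% of all genes. The cadherin Cdh6 was at 8.75 and 8.10 CPM against 3.94 and 4.24 CPM (log2 fold change -1.03, adjusted p = 3.9e-06) and the integrin chain Itga8 at 293 and 285 CPM against 229 and 213 CPM (log2 fold change -0.39). Col1a2 (14913 and 15140 against 14656 and 14550 CPM) and Actb (9381 and 9185 against 8887 and 8815 CPM) were called for falls by 0.04 and 0.07 on the log2 scale, which turned into rises of 0.07 and 0.05 with library totals. The call of Col1a2 was lost without the second NF1-MET replicate, the first NF1-MET;sgP53 replicate or the second. It was also lost in DESeq2's Wald test (adjusted p = 0.375) and in the bias-adjusted form of edgeR's test (adjusted p = 0.263). With library totals the calls of Col12a1, Ccn2, Hspg2, Lrp1, Spp1 and Itga8 were lost (adjusted p between 0.0853 for Itga8 and 0.811 for Ccn2), and that of Hspg2 also in DESeq2's Wald test (adjusted p = 0.0682).

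Of 20 secreted proteases, protease inhibitors and binding proteins 7 were lower and 1 higher, against 6.34% and 5.94% of all genes. With vehicle 8 were lower and 6 higher, against 12.3% and 10.9%. Igfbp4, which sequesters insulin-like growth factors, was at 1036 and 1033 CPM in NF1-MET and at 760 CPM in both NF1-MET;sgP53 libraries (log2 fold change -0.44, SE 0.02, adjusted p = 8.7e-11). Igfbp7 was at 166 CPM in both NF1-MET libraries and at 121 and 125 CPM in NF1-MET;sgP53 (log2 fold change -0.43, adjusted p = 4.8e-08), but was higher in NF1-MET;sgP53 with vehicle (0.37, adjusted p = 5.0e-04). The thrombin inhibitor Serpine2 was at 5.06 and 5.36 CPM against 2.10 and 1.96 CPM (log2 fold change -1.36, adjusted p = 4.4e-06). The decoy receptor osteoprotegerin (Tnfrsf11b) was at 119 CPM in both NF1-MET libraries against 94.0 and 93.3 CPM (log2 fold change -0.35). None of these 4 overlapped between the lines. The call of Tnfrsf11b was lost with library totals (adjusted p = 0.163).

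In TGF-beta and BMP signaling 11 of 23 tested genes were lower and 6 higher, against 6.34% and 5.94% of all genes, and 3 were lower with library totals. Direct BMP and TGF-beta responders were among both, since Id1, Id2, Id3, Smad6 and Smad7 were lower and Bambi higher, some of which were picked out after their values were seen. Bambi, a decoy receptor, was at 0.289 and 0.156 CPM in NF1-MET and at 0.567 and 0.661 CPM in NF1-MET;sgP53 (log2 fold change 1.51, SE 0.47, adjusted p = 0.043). Its call was lost without the second NF1-MET replicate (adjusted p = 0.337) or the second NF1-MET;sgP53 replicate (adjusted p = 0.125), with the replicate block (adjusted p = 0.051) and in DESeq2's Wald test (adjusted p = 0.287). Id1, an inhibitor of basic helix-loop-helix factors, was at 26.6 and 28.7 CPM in NF1-MET and at 19.4 and 21.2 CPM in NF1-MET;sgP53 (log2 fold change -0.45, SE 0.06, adjusted p = 6.4e-05). Of the ligands, Bmp2 was at 8.42 and 7.73 CPM against 5.42 and 5.46 CPM (log2 fold change -0.56) and the activin chain Inhbb at 5.10 and 4.89 CPM against 2.87 and 2.18 CPM (log2 fold change -0.98). Bmp4 was higher, at 5.46 and 5.49 CPM against 8.23 and 8.38 CPM (log2 fold change 0.60, adjusted p = 0.00053). The BMP antagonist Grem1 was at 1158 and 1152 CPM against 819 and 788 CPM, one of the largest absolute falls (log2 fold change -0.52, SE 0.02, adjusted p = 2.6e-11), so that a ligand and an antagonist of the pathway were lower together. With library totals the call of Id1 was lost (adjusted p = 0.0545).

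Of 24 tested Wnt genes 7 were lower and 2 higher, against 6.34% and 5.94% of all genes. The ligand Wnt10a was at 40.7 and 40.2 CPM against 28.4 and 28.9 CPM (log2 fold change -0.50, adjusted p = 7.0e-07). Of the dickkopf proteins, Dkk2 was at 87.6 and 85.9 CPM against 65.5 and 66.2 CPM (log2 fold change -0.40) and Dkk3 at 272 and 260 CPM against 354 and 362 CPM (log2 fold change 0.43). The receptor Notch3 was at 5.35 and 5.91 CPM against 9.08 and 9.12 CPM (log2 fold change 0.68), while the Notch target Hey1 was at 4.84 and 5.49 CPM against 2.13 and 2.56 CPM (log2 fold change -1.15, SE 0.15, adjusted p = 4.0e-05). Receptor and target thus stood on opposite sides, and 3 of 9 Notch genes were lower and 1 higher, against 6.34% and 5.94% of all genes. The call of Dkk2 was lost with library totals (adjusted p = 0.0639).

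All 5 tested skeletal and smooth muscle genes were higher, also with any 1 library left out, and 4 were with library totals. Smooth muscle actin (Acta2) was at 7559 and 7484 CPM in NF1-MET and at 8092 and 8188 CPM in NF1-MET;sgP53 (log2 fold change 0.11, SE 0.01, adjusted p = 1.1e-06). Tagln was at 785 and 782 CPM against 949 and 950 CPM (log2 fold change 0.28), and calponin (Cnn1) at 153 CPM in both NF1-MET libraries against 196 and 188 CPM (log2 fold change 0.33). With vehicle the line differences of these 3 genes were larger, at 1.09, 1.83 and 1.93, and their levels were far lower, with Cnn1 at 1.60 and 2.01 CPM against 7.36 and 6.69 CPM. The interactions were -0.998, -1.57 and -1.62. The heavy chain Myh11 had the reverse order of sizes, at 3.14 and 3.12 CPM against 8.23 and 9.01 CPM with capmatinib (log2 fold change 1.46, adjusted p = 1.1e-07) and at most 0.0936 CPM with vehicle, where no difference was called. The call of Acta2 was lost with library totals (log2 fold change 0.23, adjusted p = 0.198).

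Of the lineage genes, the microtubule protein Map2 was at 51.7 and 51.8 CPM in NF1-MET and at 81.4 and 81.9 CPM in NF1-MET;sgP53 (log2 fold change 0.66, SE 0.03, adjusted p = 4.5e-10), while the neuronal tubulin regulator Stmn2 was at 20.1 and 21.8 CPM against 13.5 and 14.7 CPM (log2 fold change -0.58, adjusted p = 1.4e-05). The neural crest factor Sox9 was at 16.0 and 16.3 CPM against 18.8 and 18.1 CPM and was not called (adjusted p = 0.071), although with vehicle it was lower by 0.39 on the log2 scale. Snai2, which represses epithelial genes, was at 71.8 and 73.3 CPM against 66.7 and 61.8 CPM (log2 fold change -0.18), and its call was lost without the second NF1-MET;sgP53 replicate (adjusted p = 0.052), in DESeq2's Wald test (adjusted p = 0.0522) and with library totals (adjusted p = 0.742). S100b (0.398 and 0.234 against 0.0851 and 0.0827 CPM) did not overlap but was not called.

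Outside the lists, the largest rise among genes that reached 10 CPM was that of Kcnab2, a potassium channel subunit, at 2.60 and 2.29 CPM in NF1-MET and at 16.5 and 15.05 CPM in NF1-MET;sgP53 (log2 fold change 2.70, SE 0.11, adjusted p = 1.6e-11). With vehicle its difference was 3.19. The amine oxidase Aoc3 was at 2.75 and 3.18 CPM against 11.9 and 11.1 CPM (log2 fold change 1.94, SE 0.11, adjusted p = 2.3e-09) and was nearly absent from all vehicle libraries, with at most 0.201 CPM. The synaptic pentraxin Nptx2 was at 6.29 and 6.07 CPM against 17.2 and 18.6 CPM (log2 fold change 1.54), and the adhesion molecule embigin (Emb) at 8.78 and 8.04 CPM against 21.6 and 21.8 CPM (log2 fold change 1.38). The hyaluronan-binding inhibitor chain Itih2 was at 9.40 and 9.66 CPM against 21.3 and 19.5 CPM (log2 fold change 1.10), the GTPase-activating protein Arhgap28 at 7.08 and 7.47 CPM against 15.2 and 14.6 CPM (log2 fold change 1.03) and Capn6 at 12.98 and 13.3 CPM against 24.0 and 23.2 CPM (log2 fold change 0.84). Lack of overlap between the lines was a condition for naming these 7 genes.

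The calcium-activated chloride channel Ano1 was at 22.7 and 23.5 CPM in NF1-MET and at 10.5 and 8.76 CPM in NF1-MET;sgP53 (log2 fold change -1.27, SE 0.08, adjusted p = 4.4e-09). The glutamate receptor subunit Gria3 was at 18.9 and 17.7 CPM against 9.19 and 7.83 CPM (log2 fold change -1.10), and the matricellular protein Smoc2 at 117 and 123 CPM against 58.6 and 58.0 CPM (log2 fold change -1.04, SE 0.03, adjusted p = 4.7e-13). The axon guidance receptor Robo2 was at 24.8 and 26.4 CPM against 13.5 and 13.4 CPM (log2 fold change -0.93) and the guanine nucleotide exchange factor Ngef at 10.2 and 10.3 CPM against 5.08 and 4.91 CPM (log2 fold change -1.04). Gldn, which clusters sodium channels at nodes of Ranvier, was at 10.6 and 9.84 CPM against 4.54 and 6.15 CPM (log2 fold change -0.93), and the glycosyltransferase A4galt at 10.2 and 10.4 CPM against 5.31 and 5.59 CPM (log2 fold change -0.92). For all of these genes the difference with vehicle had the same sign.

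A group of noncoding transcripts fell together with Gm42418 in 1 library. Gm24187 was at 106 and 136 CPM in NF1-MET, at 82.2 CPM in the first NF1-MET;sgP53 replicate and at 12.7 CPM in the second. Gm24270 (40.7 and 55.3 against 32.7 and 5.21 CPM), Gm23935 (245 and 310 against 197 and 33.3 CPM), Gm15564 (39.4 and 44.0 against 31.7 and 5.24 CPM) and Malat1 (1342 and 1712 against 1216 and 509 CPM) had the same pattern. All 5 were called lower in edgeR's quasi-likelihood test as used here (adjusted p between 0.016 and 0.045) and none in DESeq2's Wald test. The call of Gm15564 was also lost in the bias-adjusted form of edgeR's test (adjusted p = 0.0563) and with 1 model over all 8 libraries (adjusted p = 0.062). The part of this library's composition in other results was not tested, and values without it are given where they changed a call.

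The difference between the lines depended on the drug for a share of the genes. The interaction was called for 1407 of 14497 genes (9.71%), 558 (3.85%) above and 849 (5.86%) below 0. Without the second capmatinib replicate of NF1-MET;sgP53, the library low in Gm42418, more interactions lay above than below 0. With all libraries kept, 192 lay above and 123 below 0 with library totals. The counts were 664 and 730 with DESeq2 size factors, and 433 and 461 in DESeq2's Wald test. The cause of the excess of negative values was not tested. Of the 1778 genes called with capmatinib, 542 had a called interaction and 1236 did not. Among those called higher, the interaction was above 0 for 110 and below 0 for 132. Among those called lower, it was above 0 for 104 and below 0 for 196.

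The largest positive interactions at this level were those of Aoc3 (2.23, adjusted p = 0.038), Trp53inp1, Dmpk, Itih5 and Cacna1a. The kinase Dmpk was at 95.1 and 94.3 CPM in NF1-MET and at 103 and 104 CPM in the edited line under the drug (log2 fold change 0.13), but at 36.0 and 36.3 CPM against 19.6 and 20.4 CPM with vehicle. Itih5 was at 2.67 and 2.73 CPM against 5.25 and 4.69 CPM with capmatinib (log2 fold change 0.87, interaction 0.95), and the calcium channel Cacna1a at 31.5 and 33.2 CPM against 27.7 and 29.6 CPM (log2 fold change -0.18, interaction 0.66). Besides Osmr, Tagln and Cnn1, the most negative were those of the pattern recognition protein Ptx3, at 120 and 119 CPM against 148 and 143 CPM with capmatinib and at 2.40 and 2.21 CPM against 9.63 and 9.90 CPM with vehicle (interaction -1.80, adjusted p = 3.7e-13), and the proteoglycan Ogn, at 404 and 395 CPM against 431 and 424 CPM with capmatinib (log2 fold change 0.10) and at 4.96 and 4.54 CPM against 15.4 and 16.7 CPM with vehicle (interaction -1.67, adjusted p = 3.7e-15). Dmpk, Cacna1a and Ogn lost their capmatinib call without the second NF1-MET replicate (adjusted p = 0.066, 0.23 and 0.19), and Cacna1a also without the first NF1-MET;sgP53 replicate (adjusted p = 0.19). With library totals the capmatinib calls of Dmpk, Cacna1a and Ogn were lost too (log2 fold changes 0.24, -0.06 and 0.21, adjusted p = 0.135, 0.776 and 0.247), and in DESeq2's Wald test those of Dmpk and Cacna1a (adjusted p = 0.1 and 0.278). The interaction of Aoc3 was not called without either vehicle replicate of NF1-MET;sgP53, the second vehicle or first capmatinib replicate of NF1-MET, or the first capmatinib replicate of NF1-MET;sgP53.

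Some genes were called in opposite directions with and without the drug. The laminin receptor chain Itga7 was at 13.2 and 12.7 CPM in NF1-MET and at 16.6 and 16.2 CPM in the edited line under the drug (log2 fold change 0.34, vehicle -0.21). The ribosomal protein gene Rps29 (log2 fold change 0.25, vehicle -0.17) and Pafah1b3 (0.28, vehicle -0.20) had the same pattern. Lower with capmatinib and higher with vehicle were, besides Igfbp7, Nrp1, Snai2 and Ccn2, Igsf10 (65.0 and 64.8 against 56.2 and 52.6 CPM, log2 fold change -0.25, vehicle 0.64), Klhdc8a (29.0 and 29.1 against 23.6 and 25.4 CPM, log2 fold change -0.25, vehicle 0.52) and Farp2 (53.9 and 56.0 against 46.6 and 43.1 CPM, log2 fold change -0.30, vehicle 0.18). The interaction was called for each of these genes. The capmatinib calls of Itga7, Pafah1b3 and Klhdc8a were lost in DESeq2's Wald test (adjusted p = 0.0515, 0.107 and 0.0708), and those of Farp2, Igsf10 and Klhdc8a with library totals (adjusted p = 0.346, 0.441 and 0.517).

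**Figure D5:**
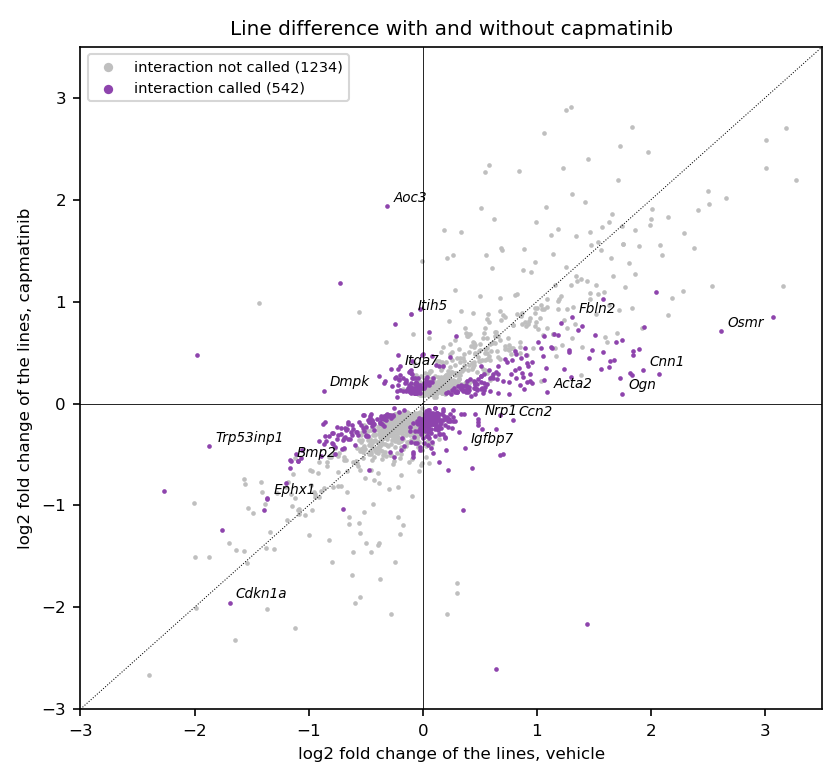
Log2 fold change of NF1-MET;sgP53 over NF1-MET with capmatinib (vertical axis) against that with vehicle (horizontal axis) for the 1776 genes called with capmatinib and tested with vehicle, of which 16 lie outside the axes. Genes with a called interaction are purple, the dotted line marks equal values, and Osmr, Cnn1 and Ogn lie far to its right while Aoc3, Itih5 and Dmpk lie above it. The axes use different libraries of the same lines.

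Over genes with at least 1 CPM, the median log2 fold change of the autosomes and the X chromosome lay between -0.04 (chromosome 15) and 0.03 (chromosome X). On chromosome 15, 74 of 483 genes were lower and 29 higher, and its median with vehicle was -0.03. Medians over windows of 25 neighbouring genes lay between -0.13 and 0.12 over all these chromosomes and between -0.10 and 0.01 on chromosome 15.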

How the data were processed

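The authors made poly(A) libraries (KAPA mRNA HyperPrep, paired-end) from duplicate cultures of each line given 100 nM capmatinib or vehicle for 24 h, trimmed the reads (Trim Galore 0.4.2, per the labels), aligned them to mm10 with STAR 2.5.2b and deposited raw counts per gene for all 8 libraries. The annotation and strand setting of the counting are not given in the sources used here, and 42 of the 139 genes described overlap an exon of another gene.

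A gene was kept when 2 or more libraries held 10 or more counts of it. The lines were compared within each treatment by edgeR 4.0.16 (R 4.3.3, limma 3.58.1), with TMM factors and the original (legacy) quasi-likelihood F-test, Benjamini-Hochberg adjustment over all tested genes and a threshold of 0.05. SEs were derived from the F statistic, and CPM values use TMM-adjusted totals. The interaction of line and treatment was fitted over all 8 libraries. The biological coefficient of variation was 3.83% with capmatinib and 3.10% with vehicle. Squared differences between duplicates were 1.54 to 1.78 times those of sampling noise (median over genes). No duplicate was therefore counted as the same library deposited again, which does not show that they were separate cultures. Whether they came from separate passages is not stated, and p-values measure the spread between these cultures. With 2 libraries a group, an exact permutation test of single genes could not pass the threshold and was not used.

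Named genes were Trp53, preset genes, the 15 largest rises and falls of called, non-overlapping genes with at least 10 CPM, the 10 largest differences in CPM, up to 4 called members in each direction and role of each list, and the 5 largest interactions and opposite calls each way, of which a part is described. Isg15, Gbp2, Gm42418 and genes named without values were chosen after their values were seen. The members and lists were chosen with earlier results of these data known. Scripts were tested on simulated data. Alternatives were DESeq2 (1.42.0) size factors and Wald test, library totals, a bias-adjusted quasi-likelihood test, other filters, 1 model over all libraries, leaving out ribosomal and small RNAs, a replicate block, and each library left out. Promoters came from RefSeq (GRCm38.p6), matched by symbol. Some marker genes are not reported here.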

Additional observations from a re-analysis of the deposited data

Results flagged for a closer look

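For 66 of the 139 genes described, the log2 difference between the lines was itself different with capmatinib and with vehicle (interaction at an adjusted p under 0.05 in edgeR's quasi-likelihood test). Values in parentheses are the capmatinib difference minus the vehicle difference, on the log2 scale.

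Among genes of the p53 list, the interaction was above 0 for Ccng1 (0.40), Ephx1 (0.41), Mdm2 (0.30) and Trp53inp1 (1.43), and below 0 for Cdkn1a (-0.28), Phlda3 (-0.21) and Btg2 (-0.37). In signaling it was above 0 for Etv1 (0.47), Errfi1 (0.11), Met (0.16), Sh3kbp1 (0.135), Flt1 (0.38) and Pdgfb (0.59), and below 0 for Ier2 (-0.42), Etv4 (-0.21), Nrp1 (-0.66) and Ephb2 (-0.45). In the cell cycle and survival groups it was above 0 for Cdkn2a (0.59), Cdkn2b (0.45) and Cenpe (0.14), and below 0 for Ccnd2 (-0.35), Mcm6 (-0.18), Rrm2 (-0.24) and Bcl2 (-0.37).

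Among secreted, matrix and adhesion genes and their receptors, values above 0 were those of Smoc2 (0.33), Tnfrsf11b (0.38), Itga8 (0.39), Itga7 (0.54), Spp1 (0.20), Bmp2 (0.58), Dkk2 (0.45) and Itih5 (0.95), and values below 0 those of Osmr (-1.92), Ptx3 (-1.80), Ogn (-1.67), Ccn2 (-0.97), Itih2 (-0.96), Igsf10 (-0.92), Igfbp7 (-0.82), Fbln2 (-0.49), Col12a1 (-0.48), Hspg2 (-0.29), Col1a2 (-0.17), Wnt10a (-0.43), Dkk3 (-0.37) and Grem1 (-0.29). Of the lineage and muscle genes, Map2 (0.35) and Sox9 (0.55) lay above 0 and Cnn1 (-1.62), Tagln (-1.57), Acta2 (-0.998) and Snai2 (-0.47) below. Of the remaining genes, Aoc3 (2.23), Dmpk (0.98), Cacna1a (0.66), Pafah1b3 (0.47), Robo2 (0.41), Rps29 (0.41) and Tpi1 (0.11) lay above 0, and Klhdc8a (-0.79), Arhgap28 (-0.57), Farp2 (-0.49), Gbp2 (-0.43), Ngef (-0.35), Lrp1 (-0.25) and Actb (-0.14) below.

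With each of the 8 libraries left out in turn, 56 to 60 of the 66 interactions were called, and all 66 kept their sign. Besides Cdkn1a and Aoc3, calls were lost without at least 1 library for Actb, Arhgap28, Btg2, Cdkn2a, Cenpe, Errfi1, Etv4, Gbp2, Mcm6, Met, Ngef, Phlda3, Sh3kbp1 and Tpi1. With library totals 39 of the 66 were called and in DESeq2's Wald test 59.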

How the results depend on the processing

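With 2 libraries a group, small changes rest on few degrees of freedom, and a lone library left in an arm is assumed to vary like the other group. With each capmatinib library left out in turn, 645 to 830 genes were higher and 711 to 925 lower. The calls depended most on scaling and on the test. With library totals in place of TMM factors, 537 genes were higher and 129 lower with capmatinib, 743 were lower with vehicle, and the interaction was above 0 for 192 and below 0 for 123. In DESeq2's Wald test 436 were higher and 434 lower with capmatinib, 832 and 1108 with vehicle, and the interaction was below 0 for 461. With single libraries left out, the interaction was above 0 for 377 to 713 and below 0 for 509 to 738 genes, with 713 and 509 both found without the second capmatinib replicate of NF1-MET;sgP53. With library totals, called genes fell to 9 lower p53 targets, 2 lower ERK transcription factors, 0 lower replication genes, 1 higher mitosis gene, 3 higher glycolysis genes and 3 lower TGF-beta and BMP genes, and Col1a2 (0.0748) and Actb (0.0468) changed sign. The Wald test gave 6 lower ERK transcription factors, 2 lower replication genes and 1 higher mitosis gene. One model over all 8 libraries gave 8 higher mitosis genes. Leaving out single libraries gave 3 to 11 lower replication genes and 3 to 8 higher mitosis genes. The cause was not tested.

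Of 135 called named genes, 93 stayed called with the same sign with library totals, 113 in the Wald test and 125 to 132 without single libraries. The replicate block gave 845 genes higher and 932 lower with capmatinib and 1905 and 2089 with vehicle, with the interaction above 0 for 619 and below 0 for 905 genes. Of the named genes called with capmatinib, it changed the call of Bambi alone. The deviations of same-numbered libraries correlated over genes at r = -0.06 with capmatinib and 0.11 with vehicle, over 2 pairs each. So few pairs cannot tell whether the numbers pair the samples.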

Other observations

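Further gene groups were counted with capmatinib, beside 5.94% higher and 6.34% lower of all genes tested. Of 20 cholesterol synthesis genes 2 were called higher and 0 lower, and of 11 fatty acid synthesis genes 3 higher and 0 lower. Of 21 lysosomal genes 4 were higher and 0 lower, and of 15 autophagy genes 0 higher and 2 lower. Of 37 genes of PI3K, AKT and mTOR signaling 3 were higher and 7 lower. Of 19 ATF4 targets, which respond to amino acid shortage, 2 were higher and 1 lower, with 8 higher and 2 lower with vehicle (10.9% and 12.3% of all genes), and of 14 genes for protein folding in the endoplasmic reticulum 1 was higher and 0 lower.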
